A study of Rattus norvegicus with 8 samples.

Results

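The genes described here make up the machinery of regulated vesicle release: synaptotagmins, synapsins, synaptophysin, SV2 proteins, syntaxins and their binding proteins, SNAP and VAMP proteins, RIMs, complexins, Munc13 proteins, vesicular glutamate transporters, bassoon, piccolo and the Rab3 GTPases. They were taken by gene symbol, and came to 76 genes with 83 transcripts, of 16462 genes with 16932 transcripts in all. RNA of whole pineal glands of Sprague-Dawley rats, untreated and kept in 14 h of light and 10 h of dark, was sequenced at embryonic day 21 (E21) and at postnatal days 5, 20 and 40 (P5, P20 and P40). Every age has 1 mid-night library (zeitgeber time 19) and 1 mid-day library (zeitgeber time 7). Each was made from the pooled glands of 10 to 19 animals at E21, P5 and P20, and of only 3 animals at P40. The study asked how the pineal transcriptome changes with development and which transcripts differ between night and day at each age. Levels are in FPKM, which divides a transcript's fragments by its length and by the number of mapped fragments in its library.

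Secretory and synaptic vesicles fuse when a vesicle SNARE, such as a VAMP, zips together with the plasma membrane SNAREs syntaxin and SNAP-25. Munc13 proteins prepare the syntaxin, complexins clamp and promote the assembled SNAREs, and synaptotagmins sense calcium, while RIMs, bassoon and piccolo hold vesicles at the active zone. Pinealocytes are neuroendocrine cells related to retinal photoreceptors. They carry synaptic ribbons and store glutamate in small vesicles, and photoreceptors with ribbon synapses are known, in mouse, for Cplx3, Cplx4 and Stx3 in place of the complexins and syntaxins of conventional synapses.

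Between 8598 and 9533 transcripts reached 1 FPKM in a library, and the relative depth ran between 0.411 (P20 mid-day) and 1 (P40 mid-night). It was read from low non-zero values of 1192 short olfactory receptor transcripts, scaled by their span and taken as 1 fragment. Pinealocyte markers (8 of 8 found) summed to 5519 FPKM at mid-night and 4479 FPKM at mid-day at P40, against 913 FPKM at mid-night and 920 FPKM at mid-day at E21, and 5 of the 8 rose (Asmt, Ddc, Gngt2, Rbp3 and Tph1). Of 14 markers of habenula and other brain neurons found, 10 stayed under 1 FPKM in every library, among them Gad1, Gad2, Slc32a1, Camk2a and Nrgn. The sum of the 14 lay between 50.7 and 175 FPKM, and the nicotinic receptor subunits Chrnb4 and Chrna3 rose at P40 against E21 while Sst fell. Chrnb4 made most of that sum, at 35.5 to 137 FPKM, and Chrna3 had 2.66 to 35.7 FPKM. The habenula marker Gpr151 had at most 0.222 FPKM. The 5 sympathetic neuron markers found, Th and Dbh included, stayed under 1 FPKM in every library. Choroid plexus markers (6 of 6 found, of which Otx2 is also a pinealocyte marker) reached 17738 FPKM in the P5 mid-night library, against 631 to 3139 FPKM in the other 7 libraries. Markers of astrocytes (39.0 to 82.6 FPKM, 4 transcripts higher and 2 lower at P40 against E21), oligodendrocytes (7.61 to 28.2 FPKM, 1 higher), Schwann cells (6.28 to 20.0 FPKM, 1 lower), microglia (13.8 to 46.1 FPKM, 3 higher and 1 lower), endothelium (9.56 to 36.7 FPKM, 3 lower), mast cells (44.1 to 70.6 FPKM, 1 higher and 3 lower) and skeletal muscle (0.244 to 10.6 FPKM, none called) had smaller sums. Kit made most of the mast cell sum, at 39.9 to 70.6 FPKM, while Cpa3, Cma1 and Tpsab1 had at most 4.37 FPKM. At P20 and P40 the latter had at most 0.188 FPKM. The counts of markers above are for P40 against E21. At P5 against E21, 4 of 6 choroid plexus markers and the muscle marker Tnnc2 were higher (8.29% of all transcripts). At P20 against P5, 5 of the 6 and Tnnc2 were lower (5.99% of all). The part of these cell types in the results was not tested, and in whole glands fewer cells of a type and less RNA per cell cannot be told apart.

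Transcripts of the release machinery were among the most abundant of the gland after birth. The 83 transcripts summed to 2786 FPKM at mid-night and 2674 FPKM at mid-day at P40, against 959 FPKM at mid-night and 964 FPKM at mid-day at E21, and the sums at P5 and P20 lay between 2221 and 2606 FPKM. They took 1.40% to 2.07% of all FPKM in the 6 postnatal libraries, against 0.737% at mid-night and 0.665% at mid-day at E21. A few genes carried most of the sum. Snap25, the plasma membrane SNARE, had a mean of 551 FPKM over the 8 libraries and ranked 11 among all transcripts, Syp (synaptophysin, the major vesicle membrane protein) had 397 FPKM and ranked 16, and Slc17a7 (the vesicular glutamate transporter VGLUT1) had 208 FPKM and ranked 39. Cplx3 had a mean of 123 FPKM and Vamp2 of 110 FPKM.

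**Figure D1:**
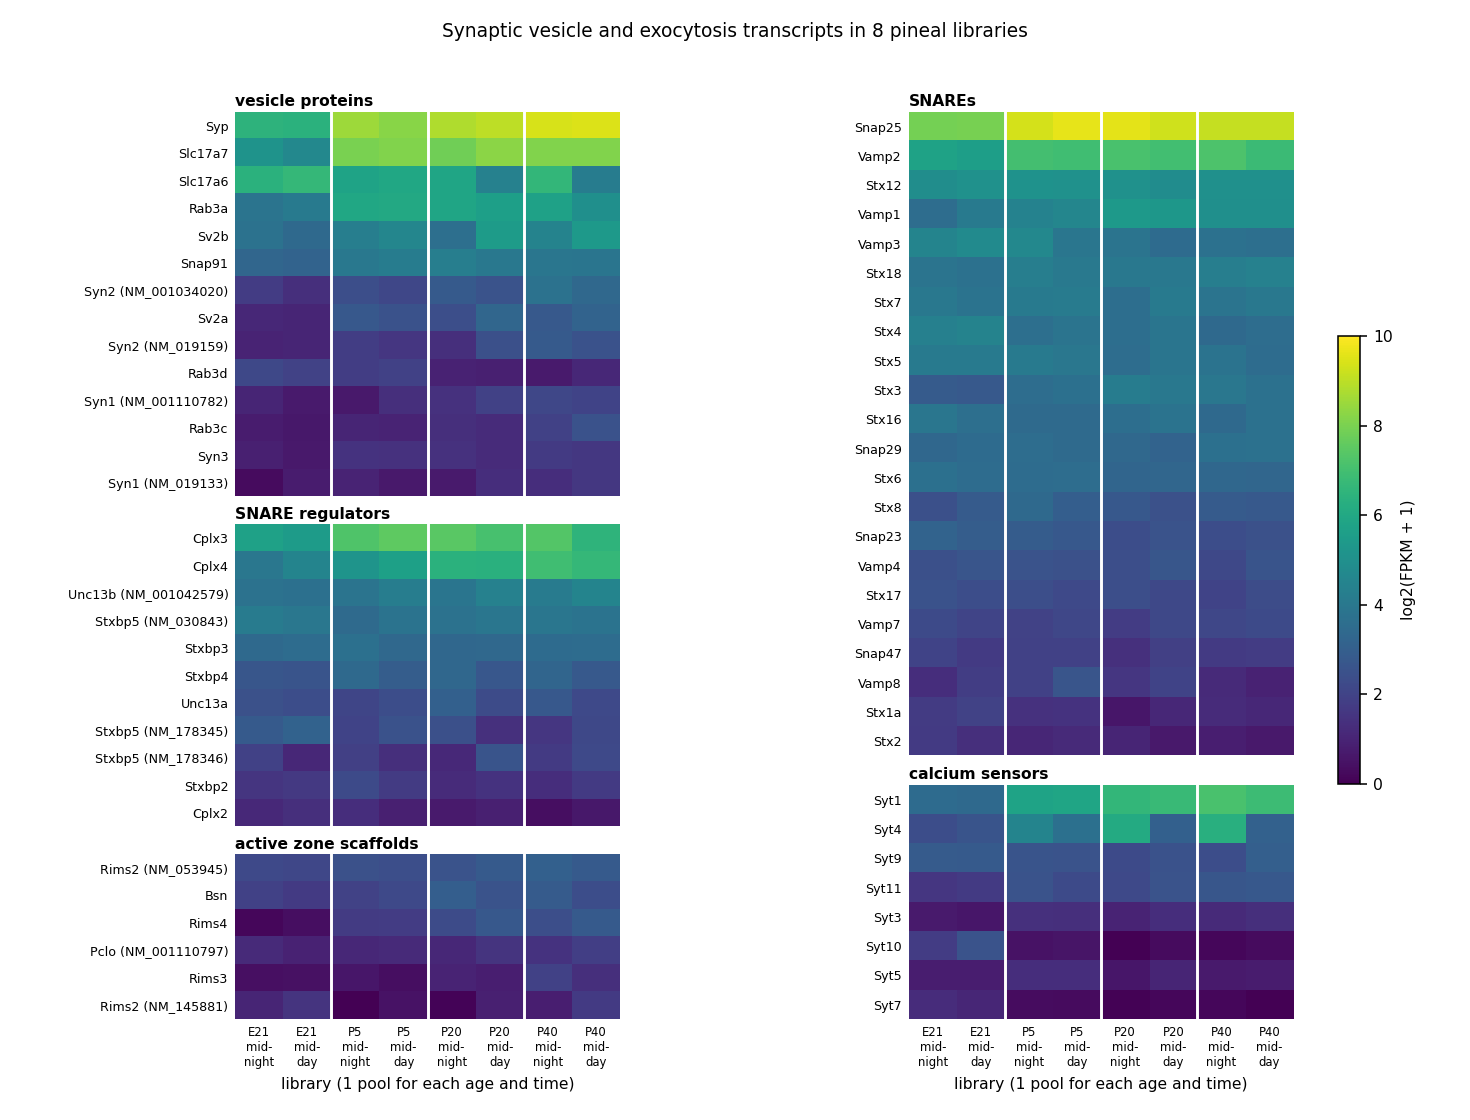
Level of member transcripts tested, as log2(FPKM + 1), in the 8 libraries, 1 column for each age and time of day and grouped by role. The brightest rows are Snap25, Syp, Slc17a7 and Cplx3, and Syp, Slc17a7 and Syt1 are darkest at E21, while Slc17a6 and Syt4 alternate between mid-night and mid-day columns at P20 and P40.

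Many members changed with age. Of the 83 transcripts, 63 reached 1 FPKM in at least 2 libraries and could be tested, and the other 20 are described at the end. By the limma F test over the 4 ages 31 of the 63 changed (49.2%, against 36.4% of all 9960 transcripts tested; Benjamini-Hochberg adjusted p under 0.05). At P40 against E21, 29 members were higher (46%, against 16.1% of all) and 10 were lower (15.9%, against 26.8% of all). The median change was 0.41 on the log2(FPKM + 1) scale for the members and -0.18 for all transcripts. That median over all transcripts was -0.04 after quantile normalization and 0.01 after centring each library, so a change near -0.18 is no change relative to the rest. The highest age mean was at P40 for 24 of the 63 members (38.1%, against 24.3% of all), at E21 for 18 (28.6%, against 45.9%), at P5 for 14 and at P20 for 7. Every age has 2 libraries of different times of day, which the fit models as an additive term. The p-values rest on what is left over, in which differences between pools and night differences that vary by age are not separated. After either scaling 30 members were higher at P40 and 5 lower. Without P40 mid-night 16 were higher, and without any 1 library of E21 or P40 4 to 6 were lower. Of the 39 calls at P40 against E21, 20 held in every alternative run and none changed sign.

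**Figure D2:**
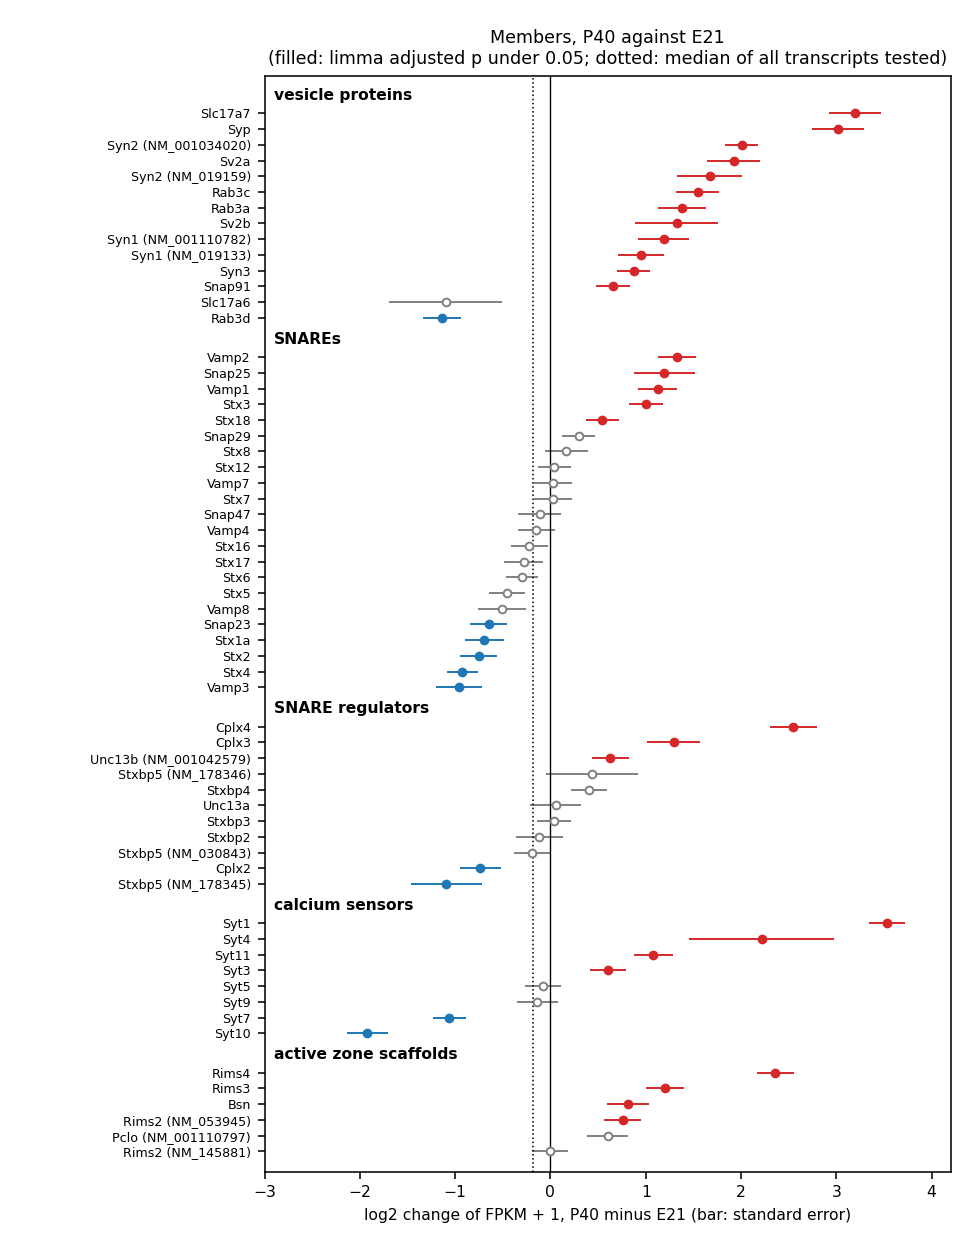
Change of the members on the log2(FPKM + 1) scale, P40 minus E21, with its standard error, grouped by role; filled points passed the limma test and the dotted line is the median of all 9960 transcripts, -0.18. Of 14 vesicle protein transcripts 12 lie to the right and passed, while the SNAREs spread to both sides, 5 called higher and 5 lower.

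The proteins of the vesicle itself were higher at P40 in 12 of 14 transcripts tested and lower in 1 (16.1% of all transcripts were higher and 26.8% lower), with a median change of 1.35. Syp had, across E21, P5, P20 and P40, 88.3, 368, 446 and 675 FPKM at mid-night and 81.6, 297, 508 and 714 FPKM at mid-day. It lay higher at every later age in both times of day, and the P40 mean was 8.17-fold that of E21 (log2 change 3.02 ± 0.28, adjusted p = 0.000192). Its gene lies at chrX:26894446-26905292 of rn4, the build of the deposited coordinates. Rab3a, the main Rab GTPase of synaptic vesicles, had 13.5, 60.5, 58.3 and 52.2 FPKM at mid-night and 16.1, 64.9, 49.2 and 30.7 FPKM at mid-day over the same ages. Its level was highest at P5 in both times of day, and it was still 2.80-fold higher at P40 than at E21 (log2 change 1.38 ± 0.25, adjusted p = 0.00392). Rab3a made 74.1% to 94.6% of the FPKM of the 4 Rab3 genes. Rab3c had 0.677, 1.07, 1.52 and 2.83 FPKM at mid-night and 0.544, 0.998, 1.36 and 4.76 FPKM at mid-day and was higher at P40 (log2 change 1.55 ± 0.23, adjusted p = 0.00145). Rab3d, of exocrine and other secretory granules, had 3.46, 2.49, 0.915 and 0.671 FPKM at mid-night and 2.91, 2.77, 0.846 and 1.16 FPKM at mid-day and was lower (-1.14 ± 0.20, adjusted p = 0.00334), and Rab3b stayed between 0.574 and 0.908 FPKM and was not tested.

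SV2 proteins are transporter-like glycoproteins of the vesicle membrane. Sv2b held 73.2% to 91.6% of the FPKM of Sv2a and Sv2b together, and Sv2c did not pass 0.0644 FPKM. Sv2a had 1.16, 5.73, 4.25 and 5.98 FPKM at mid-night and 1.05, 4.71, 8.82 and 8.08 FPKM at mid-day across E21, P5, P20 and P40. Every postnatal library lay above both E21 libraries (log2 change at P40 1.92 ± 0.28, adjusted p = 0.00145). Sv2b was also higher at P40 (log2 change 1.32 ± 0.43, adjusted p = 0.0397), and its values by time of day are given below. The synapsins, which tether vesicles into a reserve pool, were low, and all 5 transcripts tested were higher at P40. Of the Syn2 transcripts, NM_001034020 had 2.39, 4.33, 6.11 and 12.6 FPKM at mid-night and 1.56, 3.42, 4.93 and 9.32 FPKM at mid-day, 5.54-fold higher at P40 than at E21 (log2 change 2.01 ± 0.17, adjusted p = 0.000147). The other Syn2 transcript, NM_019159, had 0.974, 2.55, 1.55 and 6.17 FPKM at mid-night and 1.05, 1.99, 4.49 and 4.71 FPKM at mid-day (log2 change 1.67 ± 0.34, adjusted p = 0.00604). Syn3 had 0.841, 1.73, 1.65 and 2.24 FPKM at mid-night and 0.617, 1.69, 1.36 and 2.09 FPKM at mid-day (0.87 ± 0.17, adjusted p = 0.00561). Neither gene had an E21 library above its P40 libraries. Syn1 NM_001110782 had 1.07, 0.620, 1.72 and 3.37 FPKM at mid-night and 0.640, 1.57, 2.80 and 3.05 FPKM at mid-day (1.19 ± 0.27, adjusted p = 0.0099), and Syn1 NM_019133 had 0.213, 1.01, 0.662 and 1.50 FPKM at mid-night and 0.676, 0.596, 1.47 and 2.05 FPKM at mid-day (0.95 ± 0.24, adjusted p = 0.0162). The 2 Syn2 transcripts overlap in the deposited coordinates, so the split between them is uncertain. The 2 Syn1 transcripts do not overlap there, and NM_019133 is placed only at the short stretch chrX:12579601-12580054. Snap91, the clathrin assembly protein AP180 that retrieves vesicle membrane and no SNARE despite its name, rose by 0.66 ± 0.18. The call of Sv2b was lost without E21 mid-day (adjusted p 0.27), either P5 library (0.0605) or either P40 library (0.167 and 0.108), and that of Snap91 without any 1 of the 4 libraries of E21 and P40 (0.0717 to 0.116). Syn2 NM_019159 was lost without P40 mid-night (0.0557), Syn1 NM_001110782 without E21 mid-day or P40 mid-night (0.0784 and 0.0823), and Syn1 NM_019133 without E21 mid-night or either P40 library (0.077 to 0.0961).

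The vesicular glutamate transporters, which load glutamate into vesicles, changed their order between E21 and P5. Slc17a7 (VGLUT1, chr1:95640749-95651938 in rn4) had 34.5, 249.96, 227 and 273 FPKM at mid-night and 24.4, 271, 309 and 276 FPKM at mid-day across E21, P5, P20 and P40. The 6 postnatal libraries, at 227 FPKM or more, did not overlap with the 2 of E21, and the P40 mean was 9.33-fold higher (log2 change 3.20 ± 0.27, adjusted p = 0.000146). Slc17a6 (VGLUT2, chr1:101425974-101466023 in rn4) had 83.1, 55.4, 57.7 and 98.7 FPKM at mid-night and 99.7, 60.8, 20.2 and 17.5 FPKM at mid-day. Its highest and its lowest level over all libraries were both mid-day values, at E21 and at P40, while the P40 mid-night library was close to E21. The test of P40 against E21 missed the threshold (log2 change at P40 -1.10 ± 0.60, adjusted p = 0.17), and without the P40 mid-night library the adjusted p was 0.027, with Slc17a6 lower at P40. Slc17a7 made 29.3% of the summed FPKM of the pair at mid-night and 19.6% at mid-day at E21, and 81.9% at mid-night and 81.7% at mid-day at P5. At P40 its share was 73.5% at mid-night and 94% at mid-day. Slc17a8 (VGLUT3) did not pass 0.217 FPKM in any library.

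Among the SNAREs 5 of 23 transcripts tested were higher at P40, 5 were lower and 13 did not pass, with a median change of -0.15. These shares are near those of all transcripts (16.1% higher and 26.8% lower, median -0.18), so the counts are no result about the SNAREs as a role. Snap25, Vamp2 and Vamp1, which serve synaptic release, rose. Snap25 had 238, 654, 763 and 552 FPKM at mid-night and 245, 783, 613 and 559 FPKM at mid-day across E21, P5, P20 and P40. All 6 postnatal libraries lay above both E21 libraries, and it was 2.30-fold higher at P40 than at E21 (log2 change 1.20 ± 0.32, adjusted p = 0.0184). Vamp2, the main vesicle SNARE of synapses, had 53.7, 129.7, 139 and 148 FPKM at mid-night and 47.7, 123, 123 and 112 FPKM at mid-day, and its relative Vamp1 had 10.9, 20.8, 41.1 and 30.3 FPKM at mid-night and 16.4, 23.4, 37.7 and 30.5 FPKM at mid-day. Both were higher in every postnatal library than in either E21 library (log2 change at P40 1.33 ± 0.20, adjusted p = 0.00182 for Vamp2, and 1.13 ± 0.20, adjusted p = 0.00375 for Vamp1). Vamp3 (cellubrevin, of endosomal and general secretory traffic) went the other way, with 22.0, 24.2, 13.3 and 12.4 FPKM at mid-night and 26.7, 14.2, 10.3 and 11.6 FPKM at mid-day (log2 change -0.96 ± 0.24, adjusted p = 0.0153). Vamp2 made 77.6% of the FPKM of Vamp1, Vamp2 and Vamp3 at mid-night and 72.6% at mid-day at P40, against 62% at mid-night and 52.5% at mid-day at E21.

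The plasma membrane syntaxins differed in direction. Stx3, the syntaxin of retinal ribbon synapses, had 6.26, 10.9, 17.5 and 14.5 FPKM at mid-night and 6.02, 11.9, 14.8 and 12.2 FPKM at mid-day across E21, P5, P20 and P40 (log2 change at P40 1.0 ± 0.17, adjusted p = 0.00312). Stx1a, the syntaxin of conventional synapses, had 2.38, 1.71, 0.501 and 1.32 FPKM at mid-night and 2.91, 1.75, 1.15 and 1.18 FPKM at mid-day, and was lower (log2 change -0.70 ± 0.21, adjusted p = 0.0284). Stx4 (-0.92 ± 0.16, adjusted p = 0.00307) and Stx2 (-0.75 ± 0.19, adjusted p = 0.0162), which serve constitutive and epithelial secretion, were lower at P40, as was the widely expressed Snap23, with 8.13, 6.58, 4.09 and 4.10 FPKM at mid-night and 6.62, 5.73, 4.97 and 4.54 FPKM at mid-day (-0.65 ± 0.19, adjusted p = 0.0294). Snap25 made 96.7% to 99.5% of the FPKM of Snap25 and Snap23. Stx18, a SNARE of the endoplasmic reticulum, rose by 0.55 ± 0.17. Most other SNAREs of endosomes and Golgi, such as Stx12 (28.5 to 32.9 FPKM), Stx16, Stx6 and Stx7, did not pass. The calls of Stx3, Stx4, Vamp1 and Vamp2 held in every alternative. Those of Snap25, Snap23, Stx1a and Stx18 were lost without any 1 of the 4 libraries of E21 and P40 (adjusted p 0.0833 to 0.115 for Snap25, 0.0547 to 0.202 for Snap23, 0.061 to 0.198 for Stx1a and 0.0919 to 0.242 for Stx18), Stx2 without 3 of them (up to 0.0954, without E21 mid-night) and Vamp3 without 3 of them (up to 0.111, without E21 mid-day), and quantile normalization took Snap25 to 0.369. The lower calls of Stx1a, Stx2 and Snap23 were also lost after quantile normalization (0.111, 0.113 and 0.0606) and after median centring (0.0563, 0.0656 and 0.0584).

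The complexins of the gland were almost wholly the retinal pair. Cplx3 and Cplx4 together made 97.4% to 99.7% of the FPKM of the 4 complexins. Cplx3 (chr8:61354176-61360939 in rn4) had 52.2, 149, 171 and 158 FPKM at mid-night and 44.2, 183, 136 and 90.2 FPKM at mid-day across E21, P5, P20 and P40. The highest mid-night value was at P20 and the highest mid-day value at P5, and it was 2.57-fold higher at P40 than at E21 (log2 change 1.29 ± 0.28, adjusted p = 0.00801). Without the P40 mid-night library the adjusted p was 0.0892. Cplx4 (chr18:62536596-62552045 in rn4) had 14.7, 35.5, 82.9 and 121 FPKM at mid-night and 21.7, 51.0, 81.3 and 98.8 FPKM at mid-day. It went up with each age in both times of day, 6.06-fold at P40 over E21 (log2 change 2.55 ± 0.25, adjusted p = 0.000237), a call that held in every alternative. Its share of the FPKM of Cplx3 and Cplx4 was 43.5% at mid-night and 52.3% at mid-day at P40, against 22% at mid-night and 32.9% at mid-day at E21. Of the complexins of conventional synapses, Cplx1 did not pass 0.879 FPKM and was not tested, and Cplx2 had 1.22, 1.47, 0.634 and 0.306 FPKM at mid-night and 1.54, 0.829, 0.832 and 0.562 FPKM at mid-day and was lower at P40 (-0.74 ± 0.22, adjusted p = 0.0285), which was lost without any 1 of the 4 libraries (adjusted p 0.0655 to 0.193), after quantile normalization (0.109) and after median centring (0.0552). The promoter windows of the pair are shown because the pair stands apart from the other complexins in level. They hold 250 bases before and 50 bases after the annotated start, from RefSeq on build GRCr8, at chr8:66906151-66906450 (minus strand) for Cplx3 and chr18:61767705-61768004 (minus strand) for Cplx4, and capitals mark the core TAATCC, read on either strand, that the photoreceptor factors CRX and OTX2 bind.
Cplx3: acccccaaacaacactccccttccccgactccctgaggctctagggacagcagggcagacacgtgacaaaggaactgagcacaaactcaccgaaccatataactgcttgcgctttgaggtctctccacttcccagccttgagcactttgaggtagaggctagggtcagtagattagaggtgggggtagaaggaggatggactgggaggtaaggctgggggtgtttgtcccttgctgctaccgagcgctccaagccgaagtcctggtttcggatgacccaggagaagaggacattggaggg
Cplx4: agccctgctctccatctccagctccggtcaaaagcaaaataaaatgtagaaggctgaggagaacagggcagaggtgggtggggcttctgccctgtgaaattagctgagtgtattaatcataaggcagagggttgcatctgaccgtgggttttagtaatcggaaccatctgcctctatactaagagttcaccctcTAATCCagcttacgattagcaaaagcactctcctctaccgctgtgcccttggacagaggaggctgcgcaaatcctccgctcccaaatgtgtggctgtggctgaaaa
The core stands in the Cplx4 window, from position -56, and these letters are not in the Cplx3 window. Over the genes with a window it occurred in 3 of 61 members (4.92%, Cplx4, Rims3 and Unc13c), against 7.77% of 27457 genes.

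The other SNARE regulators described here are the Munc13 and tomosyn genes. Of the Munc13 proteins, which prime vesicles, Unc13b had 12.5, 13.5, 13.7 and 17.1 FPKM at mid-night and 11.8, 17.9, 20.2 and 21.8 FPKM at mid-day for transcript NM_001042579 across E21, P5, P20 and P40 (log2 change 0.63 ± 0.20, adjusted p = 0.0333, up to 0.238 without E21 mid-day and over the threshold without either P5 library or either P40 library). Unc13a had 3.31 to 7.44 FPKM and did not pass, at 0.05 ± 0.27, adjusted p = 0.883. Over the role, 4 of 12 transcripts were higher at P40 (against 16.1% of all transcripts) and 2 were lower (against 26.8%), with a median change of 0.23 (against -0.18). Besides Cplx2, the lower one was a transcript of Stxbp5 (tomosyn, which competes for SNAREs), NM_178345, with 6.09, 3.03, 4.37 and 2.03 FPKM at mid-night and 7.78, 4.71, 1.60 and 3.51 FPKM at mid-day (log2 change -1.09 ± 0.37, adjusted p = 0.0472). The 2 other Stxbp5 transcripts did not pass, the split between the 3 is uncertain, and this call was lost in 13 of its 17 alternatives.

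**Figure D3:**
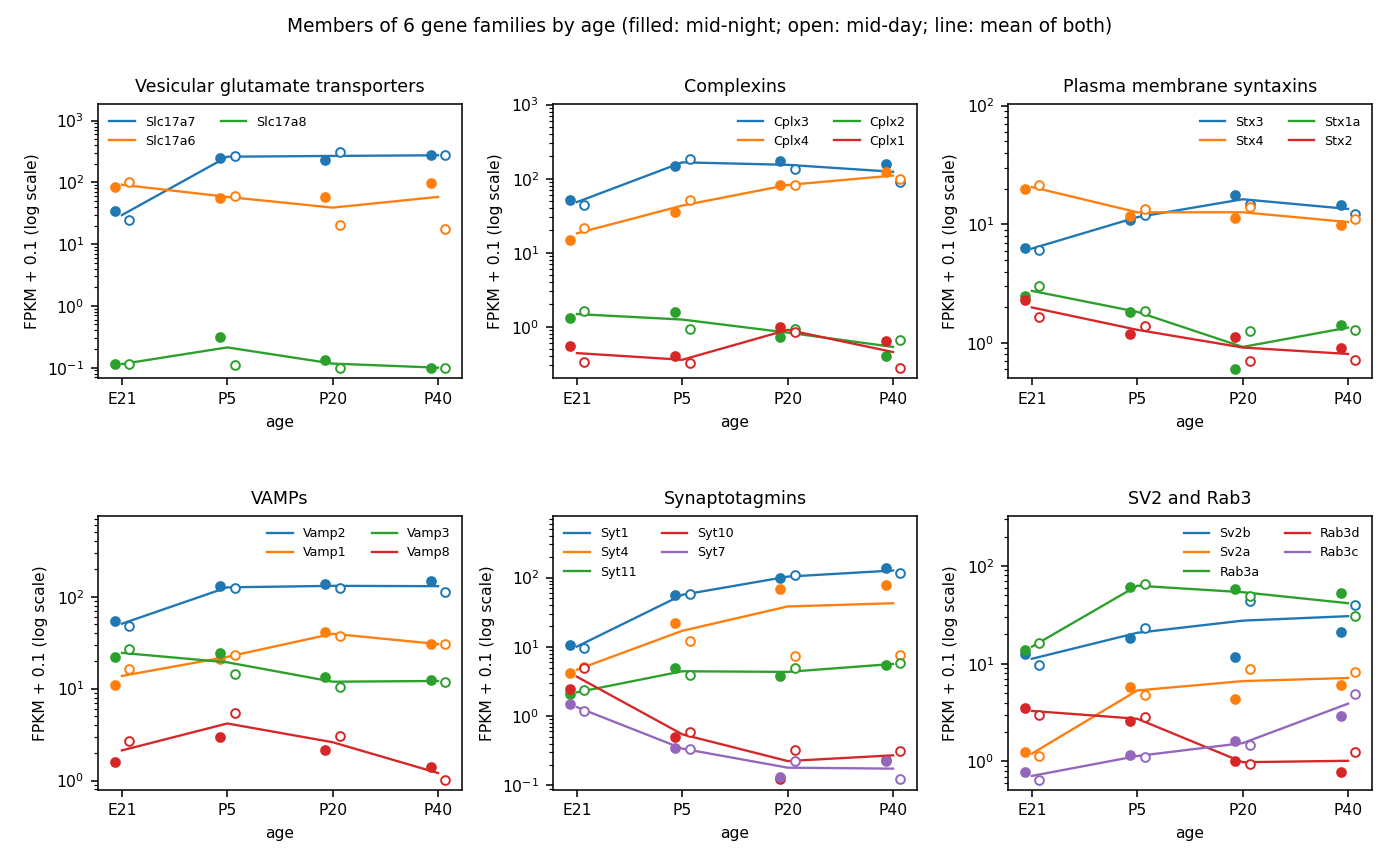
FPKM + 0.1 on a log axis against age for members of 6 gene families, with filled points for mid-night, open points for mid-day and a line through the mean of both. Slc17a7 crosses above Slc17a6 between E21 and P5, Stx3 crosses above Stx4 by P20, and Cplx3 and Cplx4 lie far above Cplx1 and Cplx2 at every age.

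Syt1 was the leading calcium sensor of the gland. Of 15 synaptotagmin genes 8 could be tested, 4 were higher at P40 and 2 lower (16.1% and 26.8% of all transcripts). Syt1, the fast calcium sensor of synaptic release (chr7:47243374-47795496 in rn4), had 10.4, 55.0, 98.2 and 138 FPKM at mid-night and 9.55, 57.3, 108 and 115 FPKM at mid-day across E21, P5, P20 and P40. It stood higher at each later age in both times of day and reached 12.6-fold at P40 over E21 (log2 change 3.53 ± 0.19, adjusted p = 3.45e-05), the lowest adjusted p of any member in that comparison. Syt1 made 60.5% of all synaptotagmin FPKM at mid-night and 82.8% at mid-day at P40, against 35.7% at mid-night and 30.7% at mid-day at E21. Syt11, which binds no calcium, had 1.95, 4.89, 3.63 and 5.46 FPKM at mid-night and 2.26, 3.79, 4.87 and 5.67 FPKM at mid-day (log2 change 1.08 ± 0.21, adjusted p = 0.00472). Syt3 rose by 0.61 ± 0.19 at no more than 1.60 FPKM. The synaptotagmins that fell were Syt10 and Syt7. Syt10, known from exocytosis of growth factor vesicles in mouse neurons, had 2.39, 0.396, 0.0224 and 0.129 FPKM at mid-night and 4.82, 0.495, 0.227 and 0.214 FPKM at mid-day (log2 change -1.92 ± 0.22, adjusted p = 0.000484). Its E21 values lay above all 6 postnatal ones, and the fold change at such levels is understated by the added 1 FPKM. Syt7, a sensor of slow release and lysosome exocytosis, had 1.39, 0.243, 0.0318 and 0.125 FPKM at mid-night and 1.10, 0.236, 0.129 and 0.0237 FPKM at mid-day (log2 change -1.06 ± 0.17, adjusted p = 0.00235). The calls of Syt1, Syt7, Syt10 and Syt11 held in every alternative, while that of Syt3 was lost without any 1 of the 4 libraries of E21 and P40 (adjusted p 0.0585 to 0.203). Syt4 is described with the night differences.

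Of the active zone scaffolds 4 of 6 transcripts were higher at P40 and none lower (16.1% and 26.8% of all transcripts), with a median change of 0.79. Rims4, a short RIM lacking the Rab3-binding part of the family, had 0.122, 2.31, 3.91 and 4.33 FPKM at mid-night and 0.281, 2.44, 5.75 and 6.11 FPKM at mid-day across E21, P5, P20 and P40. All 6 postnatal libraries lay at 2.31 FPKM or more (log2 change 2.36 ± 0.19, adjusted p = 0.000114). Rims3, another short RIM, had 0.333, 0.533, 0.980 and 2.79 FPKM at mid-night and 0.374, 0.281, 0.787 and 1.56 FPKM at mid-day, with the P40 libraries above the rest (log2 change 1.20 ± 0.20, adjusted p = 0.00258). Of the Rims2 transcripts, NM_053945 had 3.68, 4.65, 4.84 and 7.31 FPKM at mid-night and 3.41, 4.24, 6.05 and 6.11 FPKM at mid-day (log2 change 0.76 ± 0.19, adjusted p = 0.0156). The other, NM_145881, was not called and had a mean of 1.52 FPKM at P40 and 1.44 FPKM at E21. Rims1, the counterpart of Rims2 at most brain synapses, did not pass 0.433 FPKM. Bsn, the presynaptic scaffold that anchors ribbons in photoreceptors, had 2.77, 2.96, 6.98 and 6.40 FPKM at mid-night and 2.28, 3.62, 4.83 and 4.18 FPKM at mid-day (log2 change 0.82 ± 0.22, adjusted p = 0.0213). Pclo did not pass (0.60 ± 0.21, adjusted p = 0.0525). The calls of Rims3 and Rims4 held in every alternative, whereas those of Bsn and Rims2 were lost without E21 mid-day, E21 mid-night or P40 mid-night (adjusted p up to 0.17 and 0.132, both without P40 mid-night).

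More members passed the test between E21 and P5 than in either later step. At P5 against E21, 16 of 63 members were higher (25.4%, against 8.29% of all transcripts) and 4 were lower (6.35%, against 6.84% of all), with a median change of 0.26 for the members and -0.04 for all. The vesicle proteins Slc17a7 (3.12 ± 0.27, adjusted p = 0.000843), Rab3a (2.01 ± 0.25, adjusted p = 0.00277) and Syp (1.95 ± 0.28, adjusted p = 0.00458) were higher, as were Syt1 (2.38 ± 0.19, adjusted p = 0.000614), Rims4 (1.49 ± 0.19, adjusted p = 0.00293), Cplx3 (1.76 ± 0.28, adjusted p = 0.00677), Snap25 (1.56 ± 0.32, adjusted p = 0.0164), Vamp2 (1.30 ± 0.20, adjusted p = 0.00663) and Cplx4 (1.21 ± 0.25, adjusted p = 0.0173). The lower ones were Syt10 (-1.62 ± 0.22, adjusted p = 0.00363), Syt7 (-0.86 ± 0.17, adjusted p = 0.0162), Stx4 (-0.67 ± 0.16, adjusted p = 0.0291) and the Rims2 transcript NM_145881, which had 1.05, 0.000353, 0.0705 and 0.772 FPKM at mid-night and 1.82, 0.388, 0.830 and 2.26 FPKM at mid-day. The more abundant Rims2 transcript, NM_053945, was not called and had a mean of 3.54 FPKM at E21 and 4.44 FPKM at P5. The split between transcripts of 1 gene is uncertain. Without any 1 library of E21 or P5, 6 to 9 members were higher, and without E21 mid-night or either P5 library 1 or 2 were lower. Of the 20 calls, 6 held in every alternative, those of Rab3a, Rims4, Slc17a7, Syp, Syt1 and Syt10. Snap25 was lost after quantile normalization (adjusted p 0.181) and without a filter on low FPKM (0.116). Syt7 was lost with 0.1 FPKM added instead of 1 (0.0618), and the Rims2 transcript without the time of day term (0.11). Cplx3 and Vamp2 were lost without the P5 mid-day library (adjusted p 0.061 and 0.0644), Cplx4 without E21 mid-night or either P5 library (0.0544 to 0.151), Syt7 without the same 3 libraries (0.0709 to 0.0805), the Rims2 transcript without E21 mid-night or P5 mid-day (0.0623 and 0.0909), Stx4 without any 1 of the 6 libraries of E21, P5 and P40 (0.0622 to 0.148) and Snap25 without any 1 of the 4 libraries of E21 and P5 (0.0674 to 0.127).

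Later steps moved fewer members. At P20 against P5, Syt1 was higher (0.86 ± 0.19, adjusted p = 0.0357) and Rab3d was lower (-0.95 ± 0.20, adjusted p = 0.0316), 1 member each way (1.59% each, against 1.02% of all transcripts higher and 5.99% lower). Neither call held without either P5 or either P20 library (adjusted p 0.11 to 0.273 for Syt1 and 0.117 to 0.188 for Rab3d), nor that of Syt1 without either P40 library (0.0638 and 0.062). The median of all transcripts in this step was -0.18 as deposited and 0.03 after quantile normalization or centring, and 3 members were then higher and none lower. At P40 against P20, limma called no member and no transcript at all (0% of 9960), with 5 members higher and 1 lower at an unadjusted p under 0.05. Like the earlier steps, this last one compares 2 libraries with 2, and a p that misses the threshold does not show that levels were equal. Each of these comparisons shares its libraries with the next, so their counts are not independent.

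A few members passed a test of mid-night against mid-day, all of them at P20 and P40. With a common night effect over the 4 ages limma called no member and no transcript (0% of all), with 3 members higher and 2 lower at an unadjusted p under 0.05. With separate effects, none passed at E21 and P5 (0.0201% of all transcripts higher and 0.01% lower; 1 member higher and 3 lower unadjusted). At P20 and P40 together 2 members were higher at mid-night (3.17%, against 2.8% of all) and 3 were lower (4.76%, against 1.59% of all), with a median of -0.07 for the members and -0.11 for all transcripts. The share higher at mid-night is near that of all transcripts.

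Syt4 had the largest night difference of the 63 members tested. It encodes a synaptotagmin of neuropeptide and neurotrophin vesicles that is known as an activity-induced gene in rodent cells, and lies at chr18:23805079-23814489 in rn4. It had 68.9 FPKM at mid-night and 7.37 FPKM at mid-day at P20, and 77.4 FPKM at mid-night and 7.50 FPKM at mid-day at P40. In the younger glands it had 4.12 FPKM at mid-night and 5.02 FPKM at mid-day at E21, and 22.0 FPKM at mid-night and 11.9 FPKM at mid-day at P5. Both older mid-night libraries stood far above all 6 others. The night effect at P20 and P40 was 3.13 ± 0.25, adjusted p = 0.000963, which passed in all 16 alternatives (adjusted p 0.000635 to 0.0338). It exceeded that at E21 and P5 by 2.83 ± 0.35, adjusted p = 0.0227, a difference that was lost without either E21, either P20 or either P40 library (adjusted p 0.0565 to 0.141). Syt4 was the only member past the test of that difference (1.59%, against 0.753% of all transcripts, either way). At mid-night Syt1 and Syt4 together made 94.5% of all synaptotagmin FPKM at P40. The age comparison of Syt4, 2.22 ± 0.76, adjusted p = 0.0471 at P40 against E21, was lost in 11 of 17 alternatives, among them those without E21 mid-night (0.327), P40 mid-night (0.326) or either P5 library (0.0639 and 0.0638). At mid-day Syt4 had 7.50 FPKM at P40, against 5.02 FPKM at E21.

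Slc17a6 was the other member higher at mid-night. It had 57.7 FPKM at mid-night and 20.2 FPKM at mid-day at P20, and 98.7 FPKM at mid-night and 17.5 FPKM at mid-day at P40. In the younger glands it had 83.1 FPKM at mid-night and 99.7 FPKM at mid-day at E21, and 55.4 FPKM at mid-night and 60.8 FPKM at mid-day at P5, mid-day being the higher library at both ages. The night effect at P20 and P40 was 1.95 ± 0.25, adjusted p = 0.00683, and was lost without either P40 library (0.0824 and 0.0678) and without a filter on low FPKM (0.065). Its difference from the night effect at E21 and P5 was 2.14 ± 0.36, adjusted p = 0.0517, over the threshold as deposited and under it in 6 of 15 alternatives. Its partner Slc17a7 did not pass that test. It had 227 FPKM at mid-night and 309 FPKM at mid-day at P20, and 273 FPKM at mid-night and 276 FPKM at mid-day at P40, a night effect of -0.23 ± 0.27, adjusted p = 0.692.

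Sv2b and the low Rims2 transcript were among the members lower at mid-night. Sv2b had 11.6 FPKM at mid-night and 43.3 FPKM at mid-day at P20, and 21.2 FPKM at mid-night and 39.8 FPKM at mid-day at P40. In the younger glands it had 12.6 FPKM at mid-night and 9.64 FPKM at mid-day at E21, and 18.2 FPKM at mid-night and 23.0 FPKM at mid-day at P5. The 2 older mid-day libraries were the highest of all 8. The night effect at P20 and P40 was -1.35 ± 0.26, adjusted p = 0.0308, and was lost without any of the 6 libraries of E21, P5 and P20 (0.057 to 0.34). It did not differ past the threshold from the effect at E21 and P5 (-1.36 ± 0.37, adjusted p = 0.186). The Rims2 transcript NM_145881 (-0.83 ± 0.17, adjusted p = 0.0361) had at most 2.26 FPKM, shares its gene with a more abundant transcript and was lost in 12 of 15 alternatives, among them those without either P5, either P20 or either P40 library (0.0528 to 0.244). At a single age, members with 5 FPKM or more in the higher library were at least 2-fold apart as follows, with 1 library for each time and so no test. At E21 none of 33 was (against 1.16% of all higher and 2.25% lower), and at P5 none of 33 (2.59% and 0.367% of all). At P20, 2 of 37 were higher at mid-night (5.41%, against 4.09% of all) and 4 were lower (10.8%, against 5.37%), Sv2a, Sv2b and Stxbp5 NM_178346 among them. Stxbp5 NM_178346 had 1.25 FPKM at mid-night and 5.10 FPKM at mid-day. Stxbp5 NM_178345 went the other way, with 4.37 FPKM at mid-night and 1.60 FPKM at mid-day, and the split between transcripts of this gene is uncertain. At P40, 2 of 39 were higher (5.13%, against 5.36%) and 1 was lower (2.56%, against 2.48%).

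**Figure D4:**
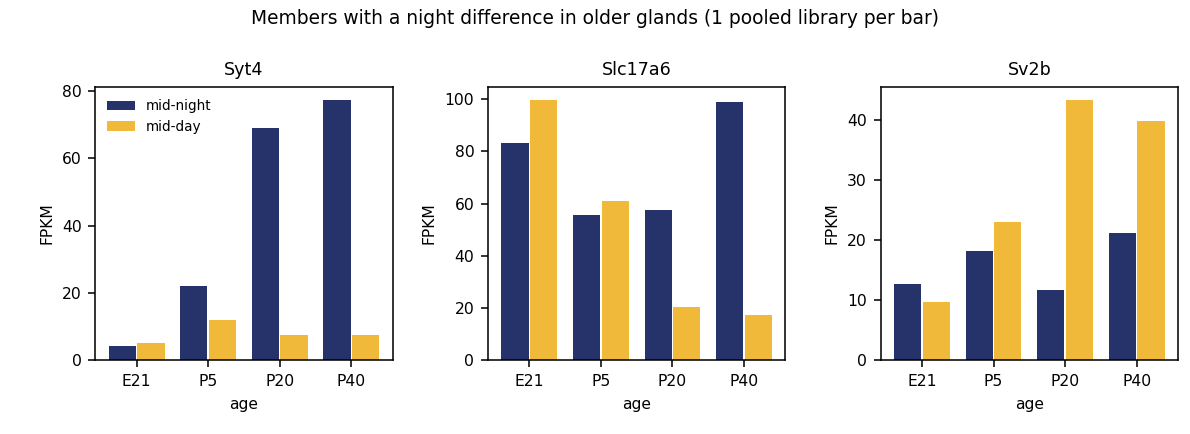
FPKM of Syt4, Slc17a6 and Sv2b at each age, with 1 bar for the mid-night and 1 for the mid-day library. At P40 Syt4 had 77.4 FPKM at mid-night and 7.50 FPKM at mid-day and Slc17a6 had 98.7 FPKM at mid-night and 17.5 FPKM at mid-day, while the mid-day bars of Sv2b are the taller ones at P20 and P40.

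The promoter windows of Syt4, Slc17a6 and Sv2b are shown because night raises cyclic AMP in the adult gland through noradrenaline. Not every member past a night test is shown, and the window of Rims2 is left out. Capitals mark the core of the cyclic AMP response element, TGACG or CGTCA on the other strand. The full element TGACGTCA holds this core on both strands. The windows are from RefSeq on build GRCr8, at chr18:23320814-23321113 (minus strand) for Syt4, chr1:110348197-110348496 (plus strand) for Slc17a6 and chr1:138562209-138562508 (minus strand) for Sv2b, each printed 5′ to 3′ on the strand of its gene. Positions are counted from 1 at the annotated start.
Syt4: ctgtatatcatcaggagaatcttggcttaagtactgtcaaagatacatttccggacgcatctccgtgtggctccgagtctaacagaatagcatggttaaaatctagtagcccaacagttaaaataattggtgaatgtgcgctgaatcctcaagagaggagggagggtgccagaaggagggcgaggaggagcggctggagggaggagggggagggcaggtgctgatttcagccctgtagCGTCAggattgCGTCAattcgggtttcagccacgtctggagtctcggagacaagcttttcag
Slc17a6: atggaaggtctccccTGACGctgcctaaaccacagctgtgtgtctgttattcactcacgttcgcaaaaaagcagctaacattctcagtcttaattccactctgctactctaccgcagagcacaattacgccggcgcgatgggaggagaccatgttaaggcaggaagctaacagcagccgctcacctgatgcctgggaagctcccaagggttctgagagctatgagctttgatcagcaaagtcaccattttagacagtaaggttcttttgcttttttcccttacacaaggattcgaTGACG
Sv2b: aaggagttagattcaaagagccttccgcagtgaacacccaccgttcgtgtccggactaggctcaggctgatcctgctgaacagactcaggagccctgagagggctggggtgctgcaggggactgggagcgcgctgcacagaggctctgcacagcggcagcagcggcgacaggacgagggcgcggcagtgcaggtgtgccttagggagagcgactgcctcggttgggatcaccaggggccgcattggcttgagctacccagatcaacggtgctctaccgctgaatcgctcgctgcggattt
The core stands at 2 places in the Syt4 window, from positions -12 and -1, and at 2 in the Slc17a6 window, from -235 and 46. These letters are not in the Sv2b window. Of 76 member genes 61 had a window, and 17 of them held the core (27.9%), against 23% of 27457 genes, so a match is common. The full element occurred in Syn1 and Vamp1 (3.28%, against 2% of genes), neither of which passed a night test. A match is a description of the letters and not a site in use.

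Other genes of release and recycling were counted in the same fit, in which 16.1% of all transcripts were higher at P40 against E21 and 26.8% lower, with a median of -0.18. Of 18 endocytosis transcripts tested, which retrieve vesicle membrane, 9 were higher at P40 and none lower, with a median of 0.71. The most abundant of these were the adaptor subunit Ap2m1 (0.82 ± 0.24, adjusted p = 0.0274), clathrin heavy chain Cltc (0.67 ± 0.22, adjusted p = 0.0413), clathrin light chain Cltb (1.68 ± 0.23, adjusted p = 0.00109) and the phosphatase Synj1 (1.29 ± 0.17, adjusted p = 0.000966). Of 12 other vesicle membrane transcripts 8 were higher, among them the proton pump subunits Atp6v1b2 (1.88 ± 0.21, adjusted p = 0.000464) and Atp6v0a1 (0.98 ± 0.18, adjusted p = 0.00403), Scamp1 (0.98 ± 0.20, adjusted p = 0.00664) and Syngr1 (1.52 ± 0.25, adjusted p = 0.00254). Synpr (synaptoporin) was lower (-1.84 ± 0.21, adjusted p = 0.00049). Of 12 ribbon and active zone partners 4 were higher and 1 lower (16.1% and 26.8% of all transcripts). They included the calcium channel subunits Cacna1f (1.85 ± 0.20, adjusted p = 0.000417), known from photoreceptor ribbon synapses, Cacna1d (0.81 ± 0.18, adjusted p = 0.00928) and Cacnb2 (2.66 ± 0.26, adjusted p = 0.000259), with the scaffold Cask lower (-0.93 ± 0.17, adjusted p = 0.00428). Ctbp2, whose gene also encodes the ribbon protein RIBEYE, had 25.9, 35.4, 39.0 and 27.1 FPKM at mid-night and 23.2, 39.4, 43.1 and 33.9 FPKM at mid-day and did not pass. Of 6 SNARE recycling and priming genes 1 was higher, a share near the 16.1% of all transcripts. It was Nsf, the ATPase that takes used SNAREs apart, with 13.1, 49.99, 92.8 and 118 FPKM at mid-night and 12.7, 51.8, 104 and 102 FPKM at mid-day (2.99 ± 0.18, adjusted p = 4.13e-05). The exocyst, which tethers vesicles to the plasma membrane, had 1 of 7 higher (Exoc6, 0.58 ± 0.20, adjusted p = 0.0485) and 1 lower (Exoc7, -0.51 ± 0.17, adjusted p = 0.0411), neither share above that of all transcripts (16.1% higher and 26.8% lower). At mid-night in P20 and P40 glands 1 of the 18 endocytosis transcripts was higher, the dynamin Dnm2 (1.61 ± 0.16, adjusted p = 0.00248). Of the 12 ribbon and active zone partners 2 were lower, the liprins Ppfia2 (-1.0 ± 0.19, adjusted p = 0.027) and Ppfia4 (-0.98 ± 0.19, adjusted p = 0.0323). In the remaining lists none passed this test, and over all transcripts 2.8% were higher and 1.59% lower. Counts this small are no result about the lists.

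The 20 transcripts left out of the tests had at most 1.25 FPKM in any library and belonged to 18 genes with no tested transcript and to a second transcript of Pclo and of Unc13b. They include 7 synaptotagmins (Syt2, Syt6, Syt8, Syt12, Syt13, Syt15 and Syt17), the Munc13 genes Unc13c and Unc13d, Rims1, Cplx1, Rab3b, Slc17a8, Sv2c, Stxbp6, Stx11, Stx19 and Vamp5. Unc13c, which primes vesicles at cerebellar synapses in mouse, had 0.809, 0.261, 0.0215 and 0.0169 FPKM at mid-night and 0.335, 0.376, 0.0696 and 0.0159 FPKM at mid-day. All 4 values at P20 and P40 lay under the 4 at E21 and P5. For 7 of the members at least 1 library was listed at 0.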

How the data were processed

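The authors sequenced 8 pooled pineal RNA libraries, and the deposited values are FPKM for 16932 transcripts (TopHat 1.3.1, Cufflinks 1.2.0 and build rn4, per the submitters' processing notes). The 8 deposited sample files hold the same values as the series table. Depth is known only as relative depth, so no counting intervals are given. limma 3.58.1 (R 4.3.3) was fitted to log2(FPKM + 1), with eBayes and trend, for the 9960 transcripts that reached 1 FPKM in 2 libraries or more. Age comparisons come from a model of age plus time of day, with 3 residual degrees of freedom. Night comparisons by age come from a model of age plus separate night terms for younger (E21, P5) and older (P20, P40) glands, with 2. Tests are two-sided, with p-values adjusted over all 9960 transcripts by the Benjamini-Hochberg method. There is 1 library per age and time, so the spread between pools of the same age and time could not be estimated. The residual spread mixes differences between pools with night differences that vary by age. The p-values rest on it and not on the spread between animals. Fold changes on this scale understate the change of low transcripts. The members, gene lists and tests were chosen with earlier results of these data known. Values in every library are given for members past the age F test or the P40 test with a 2-fold range of age means and 5 FPKM in 2 libraries, members past a night test, the 10 most abundant, and their paralogues. Alternatives were another pseudocount, filter or scaling, robust eBayes, no time term, and each library left out. Script checks on simulated data were made before the fits. Promoter windows came from RefSeq (GRCr8) and were matched by gene ID. Results of 2 members are not reported here by name, though they stay in the counts and sums.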

Additional observations from a re-analysis of the deposited data

Results flagged for a closer look

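The night effect of Syt4 differed between the older and the younger glands. It was higher at mid-night by 3.13 on the log2(FPKM + 1) scale at P20 and P40, against 0.30 at E21 and P5, and the difference of 2.83 passed the limma test of the difference itself (standard error 0.35, adjusted p = 0.0227). Both older mid-night libraries were higher than their mid-day partners, as was the P5 mid-night library, while at E21 the mid-night library was the lower one. The test did not pass without a filter on low FPKM (adjusted p = 0.228) or without a library of E21, P20 or P40 (0.0565 to 0.141).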

How the results depend on the processing

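No call reversed in any alternative. Of 1168 alternative values for single members, 935 kept their side of the threshold, 223 lost it and 10 gained it. Leaving out each library in turn gave 16 to 29 members higher and 4 to 10 lower at P40 against E21 (29 and 10 with all), 6 to 15 higher and 1 to 5 lower at P5 against E21 (16 and 4), 0 to 2 higher and 0 to 1 lower at P20 against P5 (1 and 1), 1 to 2 higher and 0 to 1 lower at mid-night at P20 and P40 (2 and 3), and 0 to 1 with a differing night effect (1). The lowest count higher at P40, 16, came without P40 mid-night. A filter at 5 FPKM left fewer members to test and gave 19 changed with age (31 at the filter of 1 FPKM), 3 lower at P40, 1 lower at P5, 0 lower at P20 and 2 with a differing night effect. Without a filter, 0 were higher at P20 against P5, 1 was higher and 0 lower at mid-night, and 0 had a differing night effect. Quantile normalization and median centring each gave 5 lower at P40 against E21, 3 higher and 0 lower at P20 against P5 and 2 with a differing night effect. A pseudocount of 5 gave 0 higher at P20 against P5, robust eBayes gave 2 with a differing night effect, and without both P5 libraries 0 were lower at mid-night. The cause of these shifts was not tested. Some of the alternatives also had fewer members or libraries. The model of age plus time of day already compares mid-night with mid-day within each age and ages within each time of day, and replicate numbers give no further pairing because every age and time has 1 library. The shallowest library, P20 mid-day, limits what can be said of members near 1 FPKM.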
